A study of Mus musculus with 12 samples.

Results

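The muscle genes described here are 10 genes chosen by name, with earlier results of these data known, in preparations of mouse retina. They are the skeletal muscle genes Acta1, Tnnt3, Tnnc2, Mylpf and Myl1, the striated muscle genes Actc1, Csrp3 and Des, and the smooth muscle genes Acta2 and Myh11. Every probe for an accession of these genes was used, which gave 12 of the 39429 probes on the arrays. A total of 9 of the 10 genes had a probe that passed the filter on dim probes and were tested, among 23237 genes, of which 15592 had a symbol. Des did not pass, nor did the second probe of Myl1.

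RNA of mouse retina was compared on 12 two-colour Agilent arrays, and each array held RNA of particle-injected eyes in Cy5 and of eyes injected with phosphate-buffered saline (PBS) in Cy3. Male C57BL/6 mice aged 5 weeks received gold particles of 100 nm or 20 nm, silicate particles of 100 nm or 20 nm, or PBS into the vitreous of the right eye, and retinas were taken 7 days later. Each of the 4 particle groups had 12 mice and 3 arrays, with 4 retinas pooled in a tube. The sample annotation gives the particle sizes in nM and the growth protocol in nm, and the strain entries of the PBS channel on the silicate arrays count upwards from C57BL/7. The 3 replicates of a group lay on 3 slides, 1 array of each group on each slide and always at the same place, so that place on the slide and group cannot be told apart. Dyes were never exchanged, so any dye effect of a probe enters every particle to PBS ratio but drops out when particle groups are compared. Whether the 4 arrays of a slide shared 1 PBS tube was not stated.

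Striated muscle contracts by the sliding of myosin along actin filaments, and calcium starts it by binding the troponin complex on those filaments. The retina has no skeletal muscle of its own. The extraocular muscles that turn the eye insert on the sclera outside it. Smooth muscle cells and pericytes belong to the retinal vessels, and smooth muscle also lies in the iris and the ciliary body. In a bulk preparation, fewer cells of a type and less RNA per cell cannot be told apart.

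The labelled tissue was checked by genes of rods, the most numerous cells of the retina. The median level of 6 rod genes was 16.21 to 17.3 in Cy5 and 16.59 to 17.3 in Cy3, in log2 intensity. Their median log2 ratio lay between -1.13 and 0.68 over the 12 arrays and was lowest on the silicate arrays of slide 3, at -1.01 for 100 nm and -1.13 for 20 nm. The median of 6 macrophage and microglia genes was 3.56 and 3.43 on the same arrays, and between -3.09 and -2.03 on the 4 arrays of slide 1. Between 26676 and 28967 of 39429 probes were well above background in Cy5, and between 27225 and 29328 in Cy3. The scanner files give brightness and not molecule numbers, and the 3 arrays per group limit the precision.

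The start regions of the genes that moved together are shown first, as the 300 bases from 250 before to 50 after the RefSeq start site on build GRCm38.p6, read 5′ to 3′ on the gene's strand. Myl1 (chr1:66945007-66945306, minus strand) and Tnnc2 (chr2:164779685-164779984, minus strand) stand for the fast troponin and myosin genes. Acta1 (chr8:123894726-123895025, minus strand) and Acta2 (chr19:34255324-34255623, minus strand) are the actin pair whose ratios ran together. Capitals mark a CArG box, the element that serum response factor binds, or the letters TATAAA on either strand. A CArG box was counted only in the strict form CCWWWWWWGG, where W is A or T. Looser forms were not searched.
Myl1: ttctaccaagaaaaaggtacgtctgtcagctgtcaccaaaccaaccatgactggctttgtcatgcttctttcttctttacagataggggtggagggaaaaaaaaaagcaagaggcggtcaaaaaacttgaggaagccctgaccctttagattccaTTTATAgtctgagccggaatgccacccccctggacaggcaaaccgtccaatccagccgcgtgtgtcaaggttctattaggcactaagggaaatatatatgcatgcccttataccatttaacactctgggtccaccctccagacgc
Tnnc2: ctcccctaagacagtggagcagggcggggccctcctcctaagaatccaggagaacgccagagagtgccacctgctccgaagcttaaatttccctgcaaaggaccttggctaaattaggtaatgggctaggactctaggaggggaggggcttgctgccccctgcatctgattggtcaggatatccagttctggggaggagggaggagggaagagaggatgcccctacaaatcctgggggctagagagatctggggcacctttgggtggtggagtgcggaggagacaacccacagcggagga
Acta1: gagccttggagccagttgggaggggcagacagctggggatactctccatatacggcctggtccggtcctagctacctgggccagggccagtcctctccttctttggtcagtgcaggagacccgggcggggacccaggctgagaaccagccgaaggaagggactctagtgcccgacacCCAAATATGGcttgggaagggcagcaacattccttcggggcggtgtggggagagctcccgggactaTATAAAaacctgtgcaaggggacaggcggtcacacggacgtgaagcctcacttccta
Acta2: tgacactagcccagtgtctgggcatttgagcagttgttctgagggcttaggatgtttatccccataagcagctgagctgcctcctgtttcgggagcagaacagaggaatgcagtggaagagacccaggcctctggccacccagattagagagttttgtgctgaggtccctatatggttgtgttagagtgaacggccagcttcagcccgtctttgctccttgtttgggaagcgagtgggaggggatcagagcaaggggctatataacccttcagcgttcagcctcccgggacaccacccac
A CArG box was found in Acta1, 73 to 64 bases before the start, and in Actc1 (chr2:114052826-114053125), 47 to 38 bases before it. Entries existed for 8 of the 10 genes, Tnnt3 and Myh11 having none. The windows of the other 6, Acta2 among them, held no CArG box of that strict form, and they may hold looser ones. TATAAA was found in Acta1, Actc1 and Myl1, a MEF2 box in no window, and an E-box (CANNTG) in all 8 genes, and no marked match overlapped another. Both strands were searched. Of all 32851 windows of this length, 1.63% held a CArG box, 13.6% TATAAA, 3.19% a MEF2 box and 72.3% an E-box. A match describes these letters and is not a site shown to be used.

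Myl1, a light chain of fast skeletal myosin, stood far above PBS on 3 arrays, all of them silicate, and near PBS on most others. Its log2 ratios of particle to PBS on slides 1, 2 and 3 were 0.75, 1.54 and -0.46 with gold 100 nm and, with gold 20 nm, 0.44, 0.29 and 0.10. They were 0.22, 0.28 and 4.44 with silicate 100 nm and, with silicate 20 nm, 0.64, 4.29 and 2.59. The high arrays were thus silicate 100 nm on slide 3, silicate 20 nm on slide 2 and silicate 20 nm on slide 3, at 21.7, 19.6 and 6.04 times PBS, while gold and silicate overlapped on the rest. The normalized Myl1 level in Cy5, in log2 intensity, was 12.07, 11.62 and 9.68 on those 3 arrays and 6.82 to 8.75 on the other 9. In the PBS channel the Myl1 level stayed between 6.83 and 7.63 on all 12 arrays. The mean log2 ratio was 2.51 ± 1.83 for silicate 20 nm and 1.65 ± 2.42 for silicate 100 nm (SD, n = 3 each). Neither passed limma's test across all genes, with adjusted p of 0.184 and 0.548.

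Both Myl1 probes showed this order. The second probe, for another accession of Myl1, was not well above background in Cy3 on any array and was so in Cy5 on 3 arrays. Those were the same 3 silicate arrays, where its log2 ratio was 2.24, 1.45 and 0.71, against -0.17 to 0.30 on the others. Its bounds used the lowest signal well above background or the probe's own Cy3 level, whichever was higher. By this the probe was on average at least 1.61-fold higher in silicate 20 nm, with mean log2 levels of 6.88 in Cy5 and 6.20 in Cy3. By the same reckoning it was on average at least 1.68-fold higher in silicate 100 nm, with 6.87 in Cy5 and 6.11 in Cy3. Such bounds do not cover the spread between arrays. The bound of 1.61 equals the mean ratio, and that of 1.68 is just under the mean ratio of 1.7. On slide 1 the probe was at 0.931 and 0.939 times PBS with silicate 20 nm and 100 nm. Cy5 was well above background on 2 of 3 arrays of silicate 20 nm and 1 of 3 of silicate 100 nm, and the probe was not tested.

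Tnnc2, the calcium-binding troponin subunit of fast muscle, followed Myl1 array by array. Its log2 ratios were 0.65, 1.08 and -0.09 on the gold 100 nm arrays, 0.34, 0.21 and -0.16 on gold 20 nm, 0.23, 0.18 and 2.98 on silicate 100 nm, and 0.46, 2.58 and 1.52 on silicate 20 nm. The same 3 silicate arrays were highest, and gold 100 nm on slide 2 came next. The Tnnc2 level was 11.74, 10.94 and 9.90 in Cy5 on the 3 silicate arrays and 7.87 to 9.07 on the other 9, while Cy3 held between 7.64 and 8.76. Silicate 20 nm averaged 1.52 ± 1.06 and silicate 100 nm 1.13 ± 1.60 on the log2 ratio (SD, n = 3 each), and limma's adjusted p was 0.205 and 0.501.

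Tnnt3, the troponin subunit of fast muscle that binds tropomyosin, had log2 ratios of 0.46, 0.91 and -0.01 for gold 100 nm and 0.01, 0.17 and -0.21 for gold 20 nm. Silicate 100 nm gave 0.39, 0.15 and 2.59, and silicate 20 nm 0.32, 2.34 and 1.54. The order of the 4 highest arrays was that of Tnnc2. This Tnnt3 probe was well above background in Cy5 on 7 arrays and in Cy3 on 5, and in neither channel on any gold 20 nm array, so its low ratios carry little signal. The other Tnnt3 probe passed the filter too and had 2.47, 1.89 and 1.13 on the 3 high silicate arrays, against -0.13 to 0.50 on the remaining 9. Limma's adjusted p for the brighter probe was 0.179 for silicate 20 nm and 0.454 for silicate 100 nm.

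Acta1, the actin of skeletal muscle, was close to PBS on most arrays and shared only part of this order. Its log2 ratios were 0.36, 0.32 and 0.14 on the gold 100 nm arrays, 0.10, 0.99 and -0.32 on gold 20 nm, 0.02, -0.08 and 1.59 on silicate 100 nm, and 0.01, 0.30 and 0.93 on silicate 20 nm. Acta1 was highest on silicate 100 nm of slide 3, followed by gold 20 nm of slide 2, and silicate 20 nm of slide 2, high for Myl1, was at 0.30. The Acta1 level ranged from 7.39 to 9.12 in Cy5 and from 7.28 to 7.95 in Cy3. Limma's adjusted p lay between 0.639 and 0.847 in the 4 groups.

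Mylpf, the regulatory light chain of fast skeletal myosin, stayed near PBS on every array. Its log2 ratio lay between -0.26 and 0.22 on all 12 arrays, and on the 3 arrays that were high for Myl1 it was 0.13, 0.22 and -0.14. The Mylpf level was 6.46 to 6.84 in Cy5 and 6.59 to 6.91 in Cy3, and the probe was well above background on 6 and 10 of the 12 arrays in those channels. Limma gave no call in any comparison. The 95% interval of the difference between silicate 20 nm and PBS ran from -0.23 to 0.15 on the log2 scale.

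**Figure D1:**
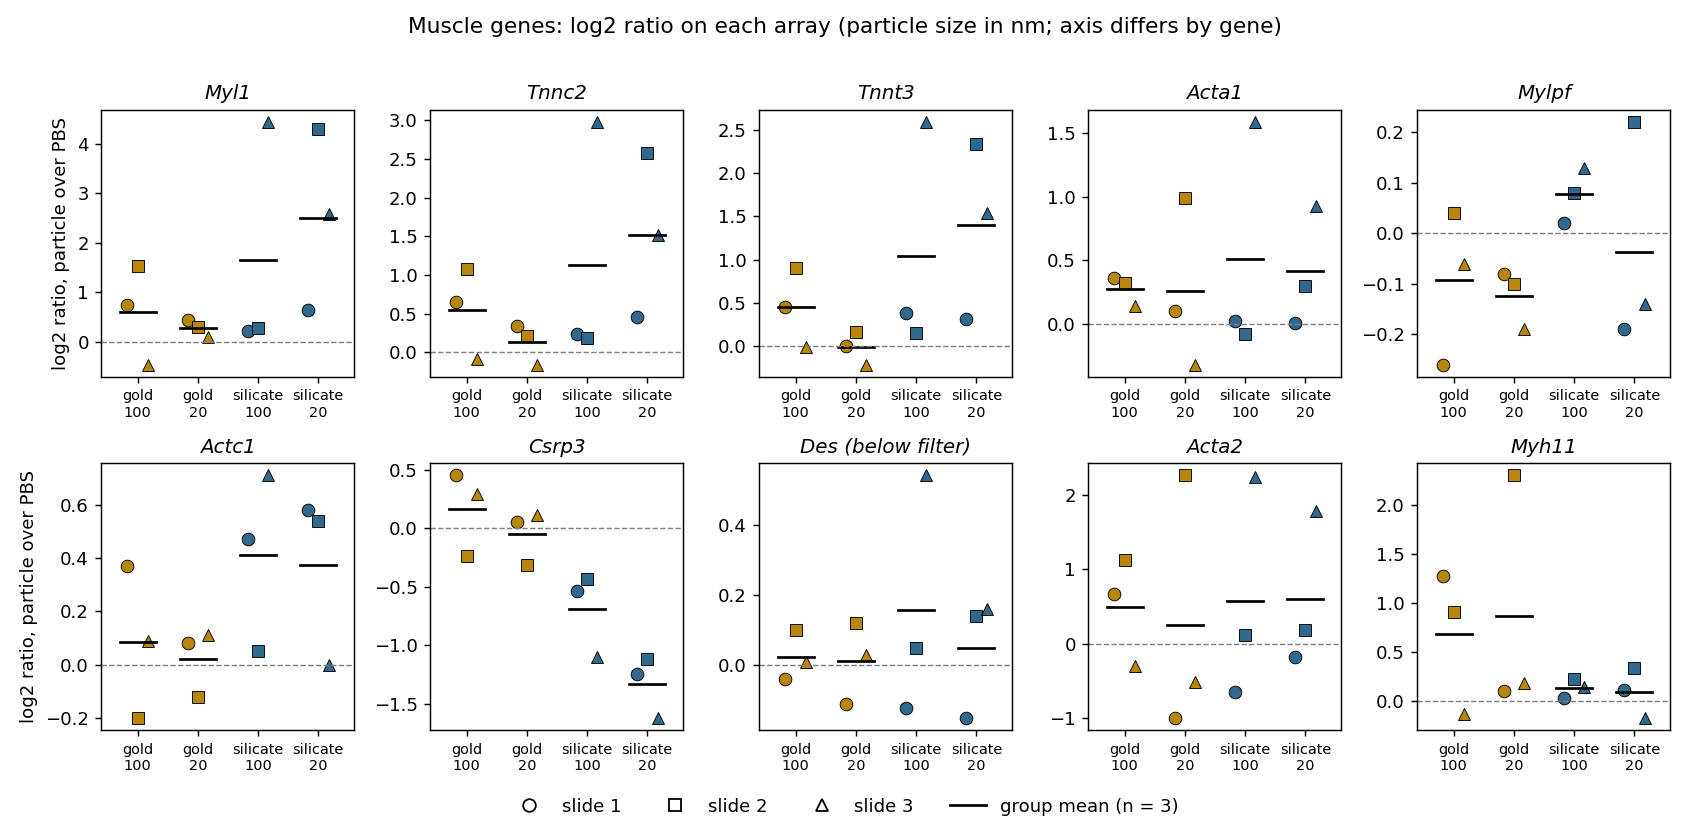
Log2 ratio of particle (Cy5) over PBS (Cy3) of the 10 muscle genes on each of the 12 arrays, by particle group with sizes in nm; symbols mark the slide, bars the mean of 3 arrays, and each gene has its own vertical scale. Myl1, Tnnc2 and Tnnt3 are highest on silicate 100 nm of slide 3 and on silicate 20 nm of slides 2 and 3, and Csrp3 lies lower on all 6 silicate arrays than on the 6 gold arrays.

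Of the 9 tested genes Csrp3 was the 1 called in the fit of the 4 group means, and it was lower. Csrp3, also named muscle LIM protein, is a protein of the Z-disc in striated muscle. Its log2 ratios were 0.45, -0.24 and 0.29 on the gold 100 nm arrays, 0.05, -0.31 and 0.11 on gold 20 nm, -0.54, -0.43 and -1.10 on silicate 100 nm, and -1.24, -1.12 and -1.62 on silicate 20 nm. All 6 silicate arrays were below PBS and below all 6 gold arrays. Csrp3 fell to 0.399 times PBS with silicate 20 nm, a mean log2 ratio of -1.32 ± 0.26 (SD, n = 3), with limma's adjusted p = 0.00564. Lower calls at that threshold made up 0.495% of all genes in this comparison. With slide as a random block the adjusted p was 0.0182, and with slide as a replicate block 0.00407. The replicate block takes differences between slides out of the error, so its p for a ratio against PBS does not measure their spread. Leaving out any slide lost the call: limma's adjusted p was 0.125, 0.202 and 0.0696 without slides 1, 2 and 3, with log2 ratios of -1.37, -1.43 and -1.18. Calls over all genes in this comparison fell too, from 483 to 48, 8 and 176. With so few arrays left, the lost call does not show that the ratio rests on a slide.

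The silicate 100 nm arrays had a mean Csrp3 log2 ratio of -0.69 ± 0.36 (SD, n = 3), which missed the threshold with limma's adjusted p = 0.11. Across the mean of the 4 particle groups Csrp3 was called lower, at -0.48 with a standard error of 0.08 and limma's adjusted p = 0.00547, where 6.34% of all genes were called lower. That call was lost with slide as a random block (adjusted p = 0.252) and without slide 1 or slide 2 (0.0561 and 0.0772). Without those slides the calls over all genes fell as well, from 3430 to 960 and 267. The direction was not shared by gold, where the mean was 0.16 ± 0.36 for 100 nm and -0.05 ± 0.23 for 20 nm (SD, n = 3 each), and limma's adjusted p was 0.766 and 0.932.

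Csrp3 differed between the groups in the particle channel. The Csrp3 level in Cy5 was 8.63, 8.59 and 8.80 on the gold 100 nm arrays, 8.32, 8.52 and 8.72 on gold 20 nm, 7.72, 8.45 and 7.29 on silicate 100 nm, and 6.92, 7.63 and 6.70 on silicate 20 nm. The PBS channel of the 12 arrays held 8.16 to 8.88, and within a slide the 4 PBS values differed with an SD of 0.06 on slides 1 and 2 and 0.13 on slide 3. On each slide both silicate arrays were below both gold arrays in Cy5, although the silicate 100 nm value of slide 2 exceeded the gold 20 nm value of slide 1.

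Gold minus silicate, a comparison in which the dye effect cancels, gave 1.07 for Csrp3 on the log2 scale, with a 95% interval from 0.69 to 1.44. Its p was 8.9e-05 before adjustment and limma's adjusted p = 0.295, so Csrp3 was not called. Of the 23235 genes compared, 0% were called. With slide as a random block limma's adjusted p for Csrp3 was 0.0495, at the edge of the threshold, and 0.043% of all genes were called higher in gold. The difference was 1.14, 0.50 and 1.56 within slides 1, 2 and 3. Non-overlap of 6 gold and 6 silicate arrays with gold higher was found in 70 genes, 0.302% of 23199, and Csrp3 was 1 of them. From the Cy5 level alone the difference was 1.15 with limma's adjusted p = 0.119.

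Rod genes and Csrp3 were low together only in part. On the silicate arrays of slide 3 the rod median was -1.01 and -1.13 while Csrp3 was at -1.10 and -1.62. On silicate 20 nm of slides 1 and 2 the rod median was 0.50 and 0.11, and Csrp3 was at -1.24 and -1.12. Without both silicate arrays of slide 3, a choice made after seeing the data, silicate 20 nm gave -1.18 for Csrp3 with limma's adjusted p = 0.0236.

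**Figure D2:**
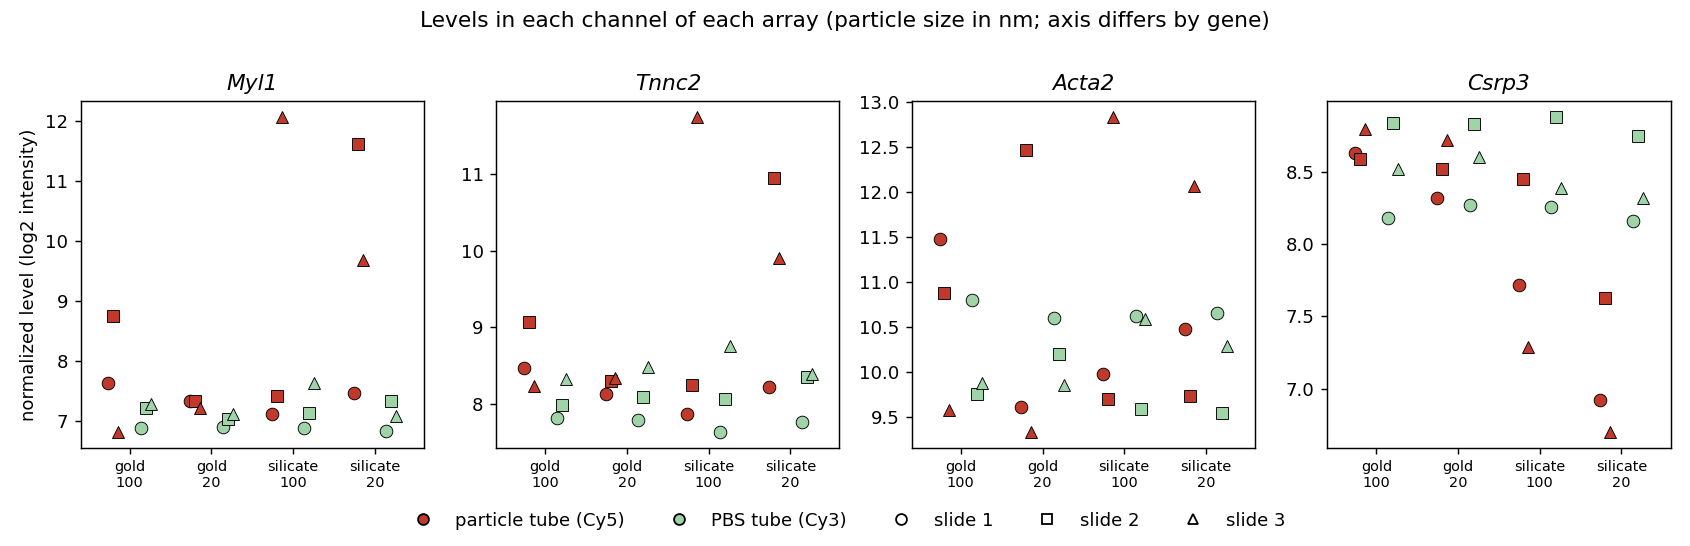
Normalized level in log2 intensity of Myl1, Tnnc2, Acta2 and Csrp3 in the particle channel (Cy5, red) and the PBS channel (Cy3, green) of each array, by particle group with sizes in nm; symbols mark the slide and each gene has its own vertical scale. The PBS points of Myl1 stay between 6.83 and 7.63 while its particle points reach 12.07, and for Csrp3 the silicate particle points reach down to 6.70.

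Actc1, the actin of heart muscle, was near PBS with gold and a little above it on most silicate arrays. Its log2 ratios were 0.37, -0.20 and 0.09 on the gold 100 nm arrays, 0.08, -0.12 and 0.11 on gold 20 nm, 0.47, 0.05 and 0.71 on silicate 100 nm, and 0.58, 0.54 and 0.00 on silicate 20 nm. Gold and silicate overlapped. The silicate means were 0.41 ± 0.34 for 100 nm and 0.37 ± 0.32 for 20 nm (SD, n = 3 each), with limma's adjusted p of 0.34 and 0.28. Gold minus silicate was -0.33 with a 95% interval from -0.68 to 0.01, and it was -0.30, -0.45 and -0.25 within the 3 slides.

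Des, which encodes desmin, the intermediate filament of muscle cells, had a probe spotted 10 times on each array, and it was hardly detected. At least 1 of these spots was well above background in Cy5 on 3 arrays and in Cy3 on 2, that is 9 and 3 spots of 120. Its log2 ratio was between -0.15 and 0.16 on 11 arrays and 0.54 on silicate 100 nm of slide 3. For that group, with Cy5 well above background on 1 of 3 arrays, the Des probe was on average at least 1.11-fold higher than PBS. Its mean log2 levels were 6.38 in Cy5 and 6.22 in Cy3. The bound equals the mean ratio and does not cover the spread between arrays. Des was not tested.

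Acta2, the actin of smooth muscle, varied between arrays in every group. Its probe, spotted 10 times, was well above background in all 120 spots of both channels. The log2 ratios were 0.67, 1.12 and -0.30 on the gold 100 nm arrays, -1.0, 2.26 and -0.52 on gold 20 nm, -0.65, 0.11 and 2.24 on silicate 100 nm, and -0.18, 0.19 and 1.78 on silicate 20 nm. High Acta2 stood on gold 20 nm of slide 2 and on both silicate arrays of slide 3, and the lowest value on gold 20 nm of slide 1. The Acta2 level in Cy5 ran from 9.33 to 12.83. In the PBS channel it was 10.60 to 10.80 on slide 1, 9.54 to 10.20 on slide 2 and 9.85 to 10.59 on slide 3, so the PBS channel differed by slide as well. No comparison was called, with limma's adjusted p of 0.808 and 0.915 in the gold groups of 100 nm and 20 nm and of 0.878 and 0.784 in the silicate groups of those sizes.

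Myh11, the smooth muscle myosin heavy chain, was high on 3 arrays, all of them gold. Its log2 ratios were 1.28, 0.91 and -0.13 on the gold 100 nm arrays, 0.11, 2.30 and 0.19 on gold 20 nm, 0.03, 0.23 and 0.15 on silicate 100 nm, and 0.12, 0.34 and -0.17 on silicate 20 nm. The 3 arrays above 0.5 were gold 20 nm of slide 2 and gold 100 nm of slides 1 and 2, and these were the arrays with Myh11 well above background in Cy5. In gold 20 nm, Cy5 was well above background on 1 of 3 arrays and Cy3 on none. Myh11 was there on average at least 1.82-fold higher than PBS, with mean log2 levels of 7.07 and 6.20. The bound equals the mean ratio, and slides 1, 2 and 3 were at 1.08, 4.94 and 1.14 times PBS. That mean rests on slide 2, and limma's adjusted p was 0.567. Gold minus silicate was 0.66 with a 95% interval from -0.21 to 1.53 and limma's adjusted p = 0.881, so a difference between the materials was not shown.

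Tnnt3 had passed the filter in gold 100 nm and silicate 20 nm and Myh11 in gold 100 nm, where most of their ratios were above 0, so passing it says nothing further of these ratios. With gold 100 nm and gold 20 nm, limma called 0 of the 9 tested muscle genes, where 0.977% and 0.706% of all genes were called in either direction. Before adjustment 0 of 9 had p under 0.05 in both gold groups, where 12.1% and 8.79% of all genes did. Silicate 100 nm also gave 0 of 9, with 0.99% of all genes called and 3 of 9 under 0.05 before adjustment, against 10.8% of all genes. Silicate 20 nm gave Csrp3, lower, and 5 of 9 under 0.05 before adjustment, against 15.5% of all genes. Of those 5, Myl1, Tnnc2 and Tnnt3 varied together across arrays. The members and the wider lists below were chosen with earlier results of these data known. Their counts beside those of all genes are thus a description and not a test. The median log2 ratio of the 9 genes was 0.45 for gold 100 nm, 0.13 for gold 20 nm, 0.51 for silicate 100 nm and 0.41 for silicate 20 nm, and that of all genes tested between -0.02 and 0.01. No particle size effect was called among the muscle genes, as among all genes, where 0% were called for 100 nm minus 20 nm and 0% for the difference of that effect between gold and silicate. Before adjustment, 1 and 0 of the 9 genes had p under 0.05 there, as did 0.99% and 0.611% of all genes.

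**Figure D3:**
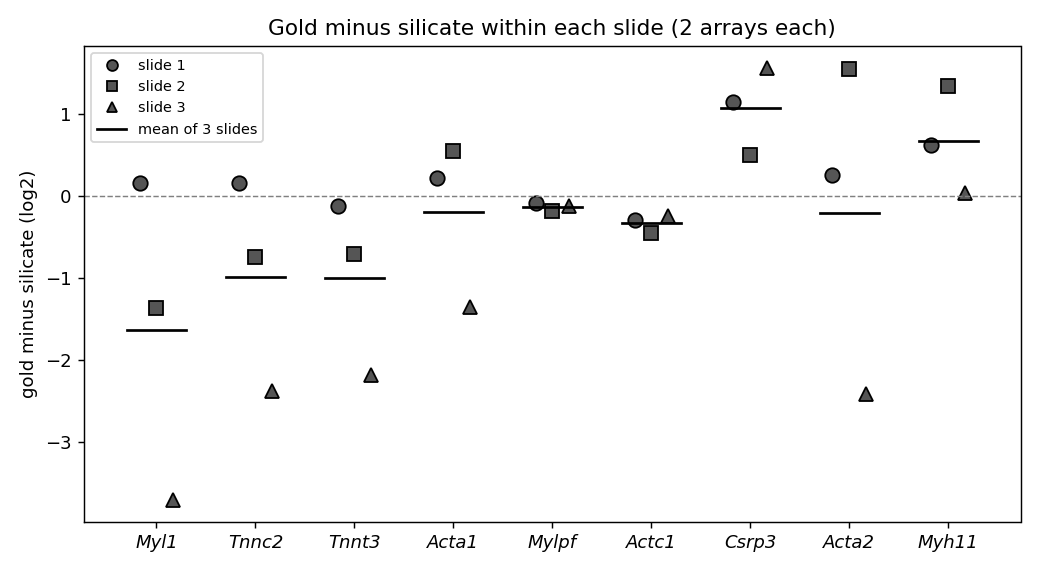
Gold minus silicate of the log2 ratio of the 9 tested muscle genes within each slide, where a point is the mean of the 2 gold arrays minus the mean of the 2 silicate arrays of a slide and a bar the mean of the 3 slides. Csrp3 (0.50 to 1.56) and Myh11 (0.04 to 1.33) are above 0 on every slide. Actc1 (-0.45 to -0.25), Mylpf (-0.18 to -0.09) and Tnnt3 (-2.18 to -0.12) are below 0 on every slide. Myl1 ranges from -3.70 on slide 3 to 0.16 on slide 1.

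In the mean of the 4 particle groups the outcome for Myl1, Tnnc2 and Tnnt3 turned on the fit. The mean log2 ratio was 1.26 for Myl1, 0.83 for Tnnc2 and 0.72 for Tnnt3, with limma's adjusted p of 0.0729, 0.0644 and 0.0646. With slide as a replicate block these were 0.0473, 0.0446 and 0.0401, and Actc1, at 0.22, had 0.0378, so that 5 of 9 muscle genes were called, where 34.8% of all genes were called in that fit. That block takes the spread between slides out of the error, so these p values do not measure replication over slides. With slide as a random block 0 of 9 were called, against 1.69% of all genes, with adjusted p of 0.601, 0.589, 0.575 and 0.573 for the same genes.

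Myl1, Tnnc2 and Tnnt3 varied together across arrays, and Mylpf did so less closely. Over the 12 arrays, which share slides and PBS channels, Pearson's r of the log2 ratio was 0.99 between Myl1 and Tnnc2, between Tnnc2 and Tnnt3, and between Myl1 and Tnnt3. The 3 high silicate arrays set most of the range, and the correlations are a description. Acta1 had r of 0.67 with Tnnc2 and 0.89 with Acta2. Mylpf had r of 0.59 with Myl1, over a range of ratios too narrow to read, and Acta2 had 0.50 with Myh11. Csrp3 had r of -0.67 with Tnnt3 and -0.63 with Tnnc2. Actins are nearly identical in their coding sequences, and probes of Acta1, Actc1 and Acta2 may each bind RNA of another actin. That was not tested.

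**Figure D4:**
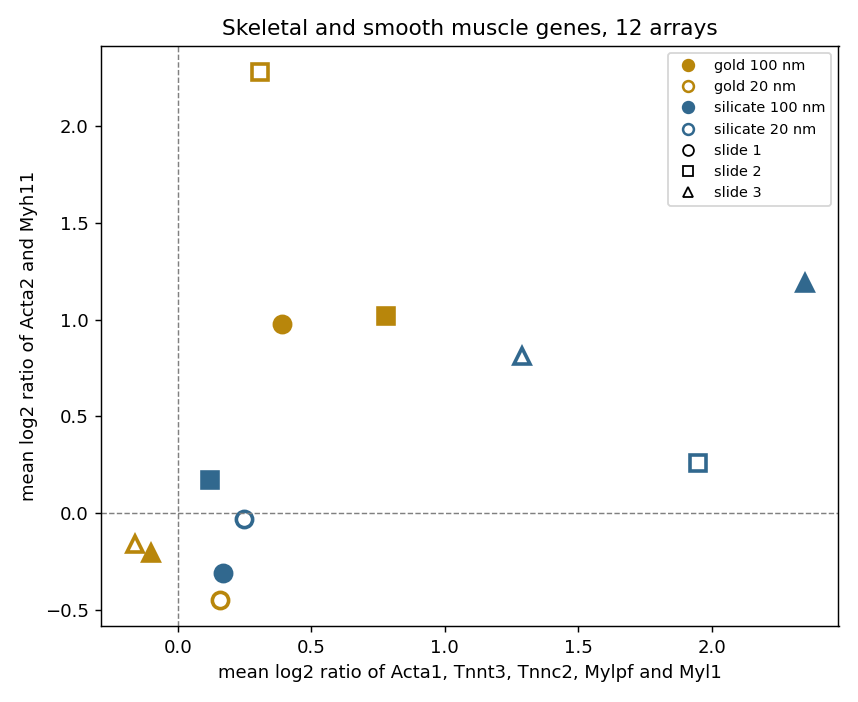
Mean log2 ratio of Acta2 and Myh11 (vertical) against that of Acta1, Tnnt3, Tnnc2, Mylpf and Myl1 (horizontal) on the 12 arrays; colour gives the material, filled symbols 100 nm, open symbols 20 nm, and the shape the slide. Silicate 20 nm of slide 2 is high on the skeletal axis alone (1.95 and 0.26), gold 20 nm of slide 2 on the smooth axis alone (0.31 and 2.28), and silicate 100 nm of slide 3 on both (2.35 and 1.19). On silicate 100 nm of slide 3 the smooth mean comes from Acta2 (2.24), with Myh11 at 0.15.

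The highest arrays of the skeletal and of the smooth muscle genes were the same only in part. On silicate 20 nm of slide 2 the mean log2 ratio was 1.95 over the 5 skeletal genes and 0.26 over both smooth muscle genes. On gold 20 nm of slide 2 it was 0.31 and 2.28 in the same order. On silicate 100 nm of slide 3 both means were high, at 2.35 and 1.19, as on silicate 20 nm of slide 3 with 1.29 and 0.81. The smooth muscle mean of these arrays came from Acta2 alone, at 2.24 and 1.78. Myh11 was at 0.15 and -0.17 there and not well above background in either channel. Gold 100 nm had 0.39 and 0.98 on slide 1 and 0.78 and 1.02 on slide 2.

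Some of the other genes of fast and general skeletal muscle were high on the same arrays as Myl1, and others stayed near PBS. The list held 35 genes, of which 33 were on the array and 24 were tested. Ckm, Neb, Actn2, Casq1 and Trdn were on the array but did not pass the filter. With silicate 20 nm the mean log2 ratio was -0.01 for Actn3, 0.07 for Atp2a1, 0.08 for Ryr1, 0.15 for Myoz1 and -0.23 for Mybpc2. Tnni2, the inhibitory troponin subunit of fast muscle, had log2 ratios of 3.89 on silicate 100 nm of slide 3 and 3.61 and 2.58 on silicate 20 nm of slides 2 and 3. On slide 1 Tnni2 was below PBS on all 4 arrays, at -1.39 and -1.68 with gold 100 nm and 20 nm and -1.87 and -0.68 with silicate 100 nm and 20 nm, and its PBS level there was 9.3 to 9.35, against 7.40 to 8.56 on slides 2 and 3. Mb, the oxygen store myoglobin, had 3.05, 2.97 and 2.20 on the same 3 silicate arrays and 0.09 to 1.18 on the other 9. Cox6a2, a subunit of cytochrome oxidase of striated muscle, had 2.97, 2.45 and 1.85 there and -1.03 to 0.42 elsewhere.

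Among the 24 genes Myh1 was called higher with silicate 20 nm, at 1.66 on the log2 scale with limma's adjusted p = 0.039, and 0.12 with slide as a random block. In that comparison 1.58% of all genes were called higher. In the mean of the 4 groups Mb, Myh1, Myh3 and Myh8 were called higher and none lower, at 1.01, 0.79, 1.29 and 1.02, with limma's adjusted p between 0.00723 and 0.0393, where 8.43% of all genes were called higher. None of the 4 kept the call with slide as a random block, with adjusted p between 0.241 and 0.505. Myh1, Myh2, Myh3 and Myh8 are related myosin heavy chain genes, and whether the probe of 1 binds RNA of another was not tested. The median of the 24 genes was 0.51 on silicate 100 nm of slide 3 and -0.07 to 0.18 on the others, and 11, 9 and 7 of them exceeded a log2 ratio of 1 on the 3 high silicate arrays. The share of all genes tested past that value was 8.03%, 1.49% and 7.7% on these arrays. Gold 100 nm of slide 2 had 5 of the 24 past it and silicate 20 nm of slide 1 had 3. The share of all genes was 1.26% and 1.69% on those 2 arrays. Gold 20 nm of slide 3 had 1 of the 24, against 0.314% of all genes, and the remaining arrays had 0.

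By likeness to the mean of the 5 skeletal genes over the 12 arrays, the nearest of 4528 candidate genes were Mb (r = 0.974), Myh2 (0.964), Myh15 (0.955), Cox6a2 (0.947), Mybpc1 (0.939), Myh8 (0.936), Myh3 (0.928), Myh1 (0.924), Tspan18 (0.919) and Tcap (0.91). Apart from Tspan18, these encode parts of striated muscle cells. Nearest to the mean of Acta2 and Myh11 were Myl9 (0.937), Tpm2 (0.93), Pla2g2e (0.921), C2 (0.909) and Tagln (0.879), and Myl9, Tpm2 and Tagln encode parts of the smooth muscle cytoskeleton. The genes nearest to Csrp3 were Glb1l3 (0.906), Hdc (0.899), Glmn (0.885), Ect2 (0.882) and Shisal2b (0.87). Those nearest to Actc1 were Pgam2 (0.873), Birc7 (0.836), Itga11 (0.823), Olfr691 (0.792) and Myh4 (0.747), and Pgam2 is the muscle form of phosphoglycerate mutase. The genes nearest to Csrp3 were not muscle genes of the lists used here.

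**Figure D5:**
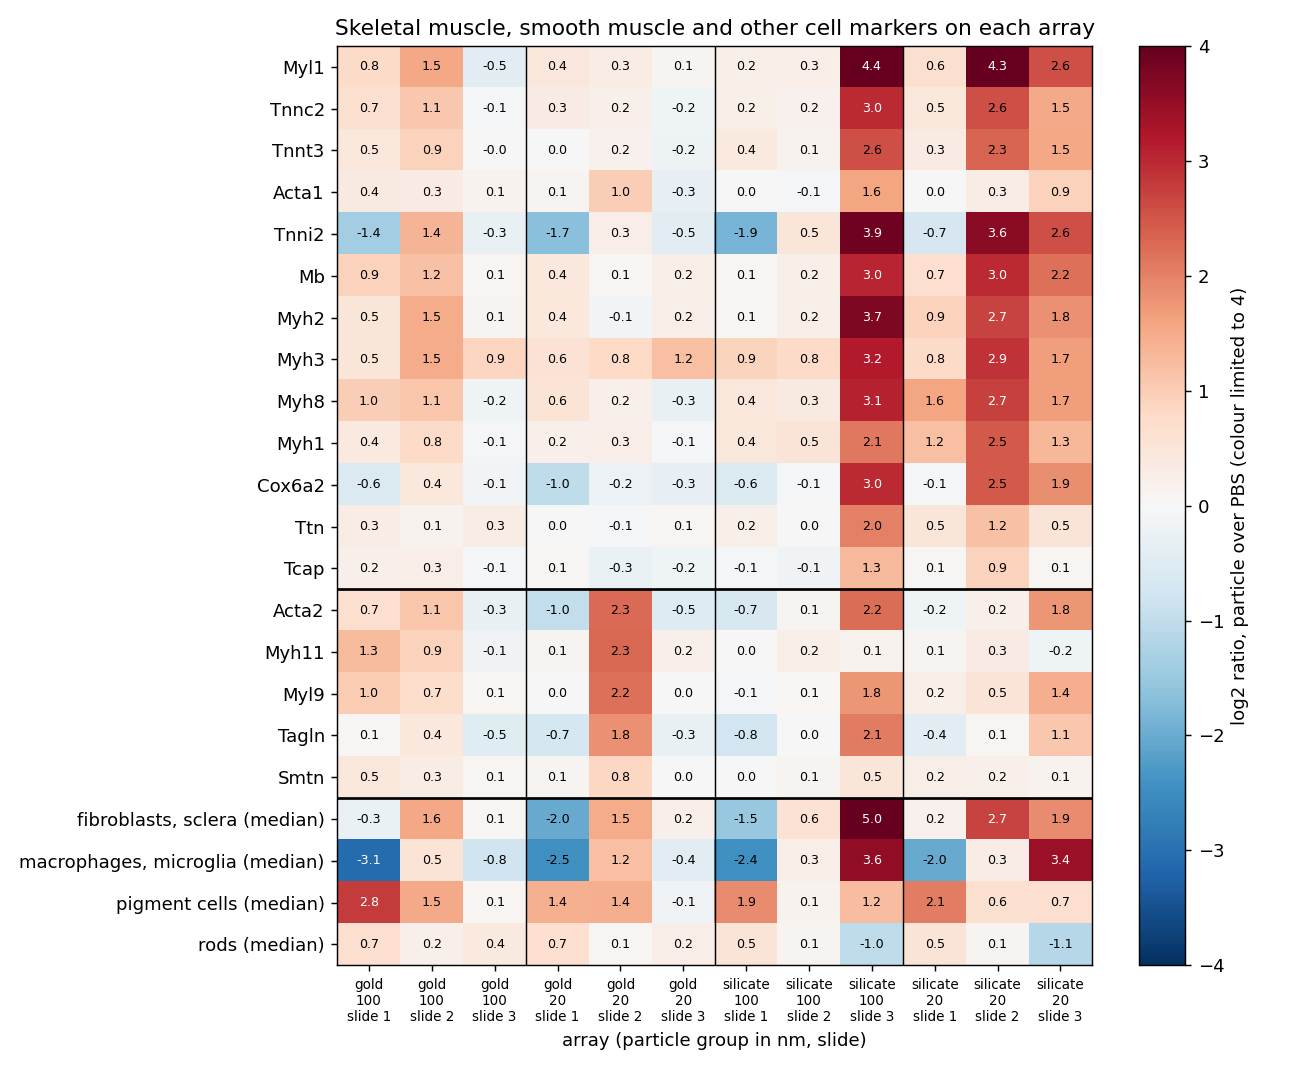
Log2 ratio of particle over PBS on the 12 arrays for skeletal muscle genes picked because they varied between arrays (top), smooth muscle genes (middle) and the medians of marker lists of other cells (bottom), with groups in columns and colour limited at 4. Most skeletal rows are high on silicate 100 nm of slide 3 and silicate 20 nm of slides 2 and 3, the macrophage median on both silicate arrays of slide 3, and Acta2, Myh11 and Myl9 on gold 20 nm of slide 2.

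Of 14 slow and cardiac muscle genes 11 were tested, and their median log2 ratio was 0.31 on silicate 100 nm of slide 3 and -0.07 to 0.13 on the other arrays. Myl2, the regulatory light chain of slow and cardiac myosin, was called higher in the mean of the 4 groups, at 0.45 with limma's adjusted p = 0.0494, and 0.539 with slide as a random block. In that mean 8.43% of all genes were called higher. Tnnt2, the cardiac troponin that binds tropomyosin, had -2.23 and -1.21 with gold 100 nm and 20 nm on slide 1 and -0.31 and -1.08 with silicate 100 nm and 20 nm, and its PBS level there was 9.82 to 9.95 against 7.94 to 8.37 on the other slides. Of 7 myogenic regulators 3 were tested. Myod1, which starts the muscle programme in myoblasts, had a log2 ratio of 0.09 to 0.27 on all 12 arrays. It was called higher in the mean of the 4 groups at 0.18, with limma's adjusted p = 0.00142 and 0.0986 with slide as a random block, and any dye effect of the probe is part of that ratio.

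Of 16 smooth muscle and pericyte genes 13 were tested. In the mean of the 4 groups 2 were called higher and 1 lower, where 8.43% of all genes were called higher and 6.34% lower. With silicate 20 nm 1 was called higher and 1 lower, against 1.58% and 0.495% of all genes. With silicate 100 nm 1 was called lower, against 0.133% of all genes. Myl9, a light chain of smooth muscle myosin, had log2 ratios of 2.20 on gold 20 nm of slide 2, 1.77 and 1.45 on silicate 100 nm and 20 nm of slide 3, and 1.01 on gold 100 nm of slide 1. Tagln, an actin-binding protein of smooth muscle, had 1.83, 2.07 and 1.08 on the first 3 of these arrays and 0.06 on the last. Mcam, a surface protein of pericytes and endothelium, was called higher in the mean of the 4 groups, at 0.41 with limma's adjusted p = 0.000245 and 0.0124 with slide as a random block. With silicate 20 nm Mcam was called higher too, at 0.48 with limma's adjusted p = 0.0246, and 0.0269 with slide as a random block. The log2 ratio of Mcam was between 0.22 and 0.69 on all 12 arrays, and any dye effect of the probe is part of it. Smtn, the smooth muscle protein smoothelin, was called higher at 0.25, with limma's adjusted p = 0.0487, and 0.543 with slide as a random block. Hspb6, a small heat shock protein of muscle, was called lower at -0.34, with limma's adjusted p = 0.000998 and 0.0752 with slide as a random block. It was also called lower with silicate 100 nm and 20 nm, at -0.50 in each, with limma's adjusted p of 0.0339 and 0.0263, and 0.0641 and 0.0502 with slide as a random block. Of 6 genes of the serum response factor and Mef2 axis 5 were tested, and Mef2a was called higher in the mean of the 4 groups at 0.32, with limma's adjusted p = 0.0429 and 0.26 with slide as a random block.

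Markers of tissue around the retina moved with the muscle genes on some arrays. The median log2 ratio of 6 fibroblast and sclera genes was 5.04, 2.69 and 1.88 on silicate 100 nm of slide 3 and silicate 20 nm of slides 2 and 3, and -2.02 to 1.56 on the other 9 arrays, with all 6 genes tested. Col1a1, the main collagen of sclera, had 5.85, 2.5 and 2.64 on these 3 arrays. On gold 20 nm of slide 2 that median was 1.47, and Dcn, the matrix proteoglycan decorin, had 4.53. The macrophage and microglia median was 3.56, 0.31 and 3.43 on the 3 arrays, so it was not high on silicate 20 nm of slide 2, where Myl1 was at 4.29. The rod median was -1.01, 0.11 and -1.13 on them. The pigment cell median was 1.22, 0.63 and 0.68 there, below the 2.81 of gold 100 nm on slide 1, where Myl1 was at 0.75. Fmod, of the fibroblast and sclera list, was called higher with gold 100 nm, silicate 20 nm and the mean of the 4 groups. Of the 7 pigment cell genes, Dct, Tyrp1, Tyr and Mlana were called higher in that mean. Of all genes, 0.831%, 1.58% and 8.43% were called higher in these comparisons. With slide as a random block none of these calls held. The part that these other tissues have in the muscle gene ratios was not tested.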

How the data were processed

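Members and gene lists were chosen with earlier results of these data known. Per the file headers, Agilent Feature Extraction 11.0.1.1 made the deposited intensity values, median spot and local background brightness in Cy5 and Cy3 and processed signals. Version 9.3.2.1 is named in the submitters' processing notes. The deposited log10 ratio served to find that values in the authors' deposited table are log2 of Cy5 over Cy3 (slope 3.3 to 3.32, r 0.942 to 0.995 across spots, column medians 0.0163 to 0.114). Its centring is not given in the sources used here.

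Background was corrected with normexp (offset 50) and ratios normalized by loess, with 1377 control spots at weight 0. Outlier spots, 149 to 257 per array, were left out, none was saturated, and spots of a probe were averaged. A probe stayed in (28460 did) if some group had it well above background on each of its 3 arrays, in either channel. Levels came from Aquantile scaling. Accessions were named through RefSeq, which left 6279 unmatched, and the brightest kept probe stood for a gene. Since mm9 is the array annotation per the file headers, RefSeq gave names and start regions only. The test was limma (3.58.1, R 4.3.3; data.table version 1.17.8), 1 fit of 4 group means over 12 arrays, two-sided. Adjustment was by Benjamini-Hochberg across every tested gene, at 0.05. A bound of at least N-fold sets the brighter mean against the lowest signal well above background on each array or the dim probe's own, whichever was higher. Such a bound does not cover the spread between arrays. Where the dim probe's own signal was higher on each array, the bound equals the mean ratio. The fit was also run on simulated data with independent arrays, which says nothing of arrays that share a slide.

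All 10 members are named. Of each wider list at most 6 genes were chosen for naming, by adjusted p and then by size, which favours genes that moved. Skeletal muscle genes near PBS or below the filter are named beside them. Likeness was taken among genes with an SD of at least 0.3 over arrays, and none was computed for Des, which was not kept. The replicate number names the slide. Deviations from the group means correlated within every slide (0.889 to 0.934, 0.0812 to 0.831 and 0.554 to 0.919), the lowest of slide 2 being under 0.1. Slide was used as a block in alternatives only. The main fit thus treats the arrays of a slide as independent, although the random block put their correlation at 0.494. For the mean of the 4 groups this overstates the evidence, with 3430 genes called against 393 with the random block. Other alternatives were median centring, minimum background subtraction, processed signals, the deposited table, no filter or a stricter one, array weights, all kept probes averaged, leaving out each slide, and, added after seeing the data, leaving out both silicate arrays of slide 3 and using Cy5 alone.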

Additional observations from a re-analysis of the deposited data

How the results depend on the processing

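The muscle genes called with silicate 20 nm were 1 (Csrp3) in the main setting and under every alternative but array weights, which gave 4 (Csrp3, Tnnt3, Tnnc2 and Myl1), and leaving out a slide, which gave 0 each time. Array weights also called 1 (Csrp3) with silicate 100 nm. Gold minus silicate gave 1 (Csrp3) with slide as a random block (correlation 0.494) and 0 otherwise. For the mean of the 4 particle groups, 1 gene (Csrp3) became 2 with minimum background subtraction (Csrp3 and Tnnt3) and without both silicate arrays of slide 3 (Csrp3 and Actc1). It became 4 with processed signals, the deposited table and array weights (Csrp3, Tnnt3, Tnnc2 and Myl1), 5 with slide as a replicate block (Csrp3, Actc1, Tnnt3, Tnnc2 and Myl1), 0 with slide as a random block, and 0 to 1 without a slide. The cause was not tested. Over all genes that mean had 3430 calls of 23235 in the main setting, and 6208 with array weights and 8089 with the replicate block, fits that called far more genes. It had 2187 with processed signals and 3398 with the deposited table. Minimum background subtraction gave 3218, and leaving out both silicate arrays of slide 3 gave 3929. The replicate block changed no other call of a muscle gene, and no called value turned its sign. Minimum background subtraction, processed signals and the deposited table gave larger Csrp3 ratios with silicate 20 nm, -1.96, -2.25 and -2.20. Over all genes, calls were 227 with gold 100 nm, 164 with gold 20 nm, 230 with silicate 100 nm, 483 with silicate 20 nm and 3430 in the mean. With slide as a replicate block they were 1560, 1038, 936, 2035 and 8089, with array weights 423, 1611, 2230, 807 and 6208, and with the stricter filter 63, 11, 34, 236 and 3011. With a random block the mean had 393, with processed signals 2187, and silicate 20 nm had 290 and 239 under these. Median centring gave 420, 350, 479, 520 and 3416, and moved the share of higher calls to 75.9% of the mean's calls, against 57.1%, and to 87.7% with silicate 20 nm, against 76.2%. Minimum background subtraction had 109 with gold 20 nm, 146 with silicate 100 nm and 307 with silicate 20 nm, and silicate 20 nm had 321 with the deposited table. Without both silicate arrays of slide 3, silicate 100 nm had 129 and silicate 20 nm 222. Leaving out a slide gave 4 to 34, 8 to 52, 7 to 41, 8 to 176 and 267 to 2111 calls. Probes near background, as those of Des, Mylpf, Tnnt3 and Myh11, limit what their ratios show.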

Other observations

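Values of lists not described above complete the arrays that stood apart for muscle genes. The median log2 ratio of 6 cornea and conjunctiva genes was highest on silicate 20 nm of slides 1 and 2, at 2.99 and 1.98, where Myl1 was at 0.64 and 4.29. Krt14, a keratin of stratified epithelium, was called higher with silicate 20 nm, at 1.81 with limma's adjusted p = 0.0432, and 0.12 with slide as a random block. Higher calls made up 1.58% of all genes there. The median of 4 ciliary body and vitreous genes lay between 0.37 and 2.5 on all 12 arrays, and Optc, Slc13a4 and Cldn2 were called higher with gold 100 nm, silicate 20 nm and the mean of the 4 groups by limma's test across all genes. Of all genes, 0.831%, 1.58% and 8.43% were called higher in those comparisons. In the mean of the 4 groups Optc, Slc13a4 and Cldn2 stood at 2.87, 2.01 and 1.16, and with slide as a random block the adjusted p there was 0.066, 0.0793 and 0.0447. With that block it was 0.0969, 0.143 and 0.0465 for gold 100 nm and 0.133, 0.0812 and 0.0646 for silicate 20 nm, so that of these 3 genes only Cldn2 kept a call, with gold 100 nm and in the mean. The median of 6 lens genes ran from -1.91 on gold 100 nm of slide 3 to 3.90 on gold 100 nm of slide 1, and that of 3 peripheral nerve genes was 1.53 and 1.55 on silicate 100 nm and 20 nm of slide 3. The endothelial median stayed between -0.94 and 0.67, and the median of 3 blood genes between -1.52 and 0.21. Alas2 and Slc4a1 of the blood genes were called lower in the mean of the 4 groups, and Slc4a1 with gold 100 nm. Lower calls made up 6.34% and 0.146% of all genes in these comparisons. With slide as a random block neither blood gene kept a call.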
